A study of Mus musculus with 4 samples.

Results

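Open chromatin was examined around 10 mouse genes of the TEAD and YAP pathway: the transcription factor genes Tead1, Tead2, Tead3 and Tead4, the coactivator genes Yap1 and Wwtr1, the target genes Ctgf and Cyr61, and the kinase genes Lats1 and Lats2. The genes were chosen by name, and the peaks of each were those from 50 kb upstream of its start to 50 kb past its end. The 10 windows span 1692 kb of mm9 and hold 65 of the 25775 peaks of the WT list and 12 of the 3836 peaks of the Tet2 KO list. No peak fell in the windows of more than 1 of these genes.

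The peaks come from ATAC-seq, in which the transposase Tn5 cuts accessible DNA and adds sequencing adapters, so that fragments pile up where chromatin is open. Satellite cells, the stem cells of skeletal muscle, were sorted from the hindlimb muscle of C57BL/6 mice as PI-, CD45-, CD11b-, CD31- and Sca1- cells that were CD34+ and Integrin a7+. They were cultured for 3 days until they were MyoD+ myoblasts, and 5000 cells went into each library. Of the 2 groups, WT carried intact Tet2, and Tet2 KO lacked exon 3 of this DNA dioxygenase gene in all cells of the animal, since the deletion was constitutive. Male mice 8 to 10 weeks old were the study's default, with no other age given for these libraries.

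Each genotype had 2 samples but only 1 peak list, which carries the name of a single library that no label ties to a replicate. The values below are therefore the authors' values for 1 library per genotype, with no SD, and no difference between the genotypes was tested. Fold enrichment is the authors' ratio of the fragments at a peak's summit to the local background of the same library. The number of fragments at each summit was solved from that ratio and its p-value. The library behind the Tet2 KO list had the higher genome-wide background, 1.38 fragments per position against 0.649 in WT, a ratio of 2.13. The methods name no control library, so this value is the mean coverage of the genome by the library's own fragments. It follows depth and is no measure of noise. The weakest listed summit held 6 fragments in WT and 7 in Tet2 KO. The cutoffs of the lists differed too: 55 Tet2 KO peaks and 0 WT peaks had a -log10 q under 2, none of them in these windows. Both lists skip numbers that the peak caller gave out along the genome, 9707 of those up to 35482 in WT and 4403 of those up to 8239 in Tet2 KO. Each therefore holds a part of the peaks that were called, and the part left out is larger in Tet2 KO. A WT peak without a listed Tet2 KO peak may thus have had one that was called. At the deleted gene itself, a window of the same kind held 4 WT peaks and 0 Tet2 KO peaks, which does not check the deletion of the exon. As each library pools many cells, fewer cells with an open site and less opening in each cell cannot be told apart. Among markers of the cell type, Myod1 and Des had promoter peaks in both lists, whereas Pax7, Myf5 and Cdh15 had none in either. At Cdh15, however, a WT peak began 247 bp past the start, beyond the 100 bp counted as promoter, and the nearest Tet2 KO peak was 2.7 kb away. Of the markers of other cells (Ptprc, Itgam, Pecam1, Cdh5 and Ly6a), 1, the endothelial gene Pecam1, had a promoter peak in WT and none had one in Tet2 KO.

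TEAD proteins bind DNA but activate transcription poorly on their own, and recruit YAP (Yap1) or its paralogue TAZ (Wwtr1) to do so. The Hippo kinases LATS1 and LATS2 phosphorylate YAP and TAZ, which keeps them out of the nucleus, while Ctgf and Cyr61 are the most commonly used targets of the active complex. In muscle, YAP promotes the proliferation of satellite cells and myoblasts, and Tead1 and Tead4 take part in muscle gene expression and differentiation.

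The sequences below show what the open regions of these genes look like at base level, as 300 bp of the mm9 reference around a WT summit. The first is the single promoter peak of the 10 genes that both lists hold, at the start of Wwtr1, in which capitals mark its 23 CpG sites, the places where methylated cytosine is the substrate of TET enzymes. The next 4 are the WT peaks of introns and intergenic sequence with the highest fold enrichment among those that hold the TEAD motif GGAATG. The last, at Ctgf, was chosen after its values were seen, since 2 TEAD motifs lie in it. In these 5, capitals mark GGAATG, its reverse complement CATTCC, and the AP-1 motif TGANTCA.
Wwtr1 promoter (chr3:57379610-57379909, plus strand): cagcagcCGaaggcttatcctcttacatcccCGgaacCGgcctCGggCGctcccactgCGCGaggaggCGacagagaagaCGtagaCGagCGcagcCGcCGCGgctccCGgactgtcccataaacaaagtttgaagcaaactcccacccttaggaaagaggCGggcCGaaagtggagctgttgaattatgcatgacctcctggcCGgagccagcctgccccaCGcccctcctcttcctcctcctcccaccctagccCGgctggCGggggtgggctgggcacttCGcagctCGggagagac
Tead1 intron, 40.9 kb from the start (chr7:119863619-119863918, plus strand): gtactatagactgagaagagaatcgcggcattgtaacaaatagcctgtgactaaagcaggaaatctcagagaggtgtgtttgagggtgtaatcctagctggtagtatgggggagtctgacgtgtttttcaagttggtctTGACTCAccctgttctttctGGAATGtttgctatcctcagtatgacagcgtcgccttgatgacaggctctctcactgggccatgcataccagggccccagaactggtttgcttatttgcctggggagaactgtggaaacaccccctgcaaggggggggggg
Wwtr1 intron, 39.9 kb from the start (chr3:57339804-57340103, plus strand): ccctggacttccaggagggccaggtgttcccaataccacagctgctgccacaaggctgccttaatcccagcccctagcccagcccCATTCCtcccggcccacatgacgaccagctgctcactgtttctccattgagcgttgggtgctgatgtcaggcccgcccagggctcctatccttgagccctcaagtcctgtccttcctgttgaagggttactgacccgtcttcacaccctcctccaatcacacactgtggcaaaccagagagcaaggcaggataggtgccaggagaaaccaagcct
Tead1 intron, 17.9 kb from the start (chr7:119840537-119840836, plus strand): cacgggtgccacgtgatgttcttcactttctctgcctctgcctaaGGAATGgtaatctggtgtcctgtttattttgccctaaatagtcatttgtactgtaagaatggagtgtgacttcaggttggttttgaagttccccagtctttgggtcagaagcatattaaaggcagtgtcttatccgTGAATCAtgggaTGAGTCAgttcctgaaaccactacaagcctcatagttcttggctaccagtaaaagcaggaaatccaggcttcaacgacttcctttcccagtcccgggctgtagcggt
Lats2, 2.3 kb upstream of the start (chr14:58379353-58379652, plus strand): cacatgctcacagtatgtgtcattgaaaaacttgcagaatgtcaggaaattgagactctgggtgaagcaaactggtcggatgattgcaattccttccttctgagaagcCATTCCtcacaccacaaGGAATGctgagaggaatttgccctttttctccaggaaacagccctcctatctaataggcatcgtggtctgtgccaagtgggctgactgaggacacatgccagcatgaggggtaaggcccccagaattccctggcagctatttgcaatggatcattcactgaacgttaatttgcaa
Ctgf, 6.0 kb upstream of the start (chr10:24309101-24309400, plus strand): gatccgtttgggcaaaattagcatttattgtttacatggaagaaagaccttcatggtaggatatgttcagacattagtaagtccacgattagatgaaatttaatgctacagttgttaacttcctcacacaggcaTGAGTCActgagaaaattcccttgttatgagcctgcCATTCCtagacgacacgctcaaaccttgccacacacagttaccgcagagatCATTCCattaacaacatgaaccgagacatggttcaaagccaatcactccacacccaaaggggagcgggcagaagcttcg

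The Wwtr1 promoter sequence had a GC content of 64.7% and held none of the 4 motifs searched. In the Tead1 intron 40.9 kb from the start, the TEAD motif began 9 bp to the right of the summit and the AP-1 motif 11 bp to its left. At 17.9 kb of Tead1, the TEAD motif began 105 bp left of the summit, and 2 AP-1 motifs lay 31 and 43 bp to the right. The Lats2 sequence held 2 TEAD motifs on opposite strands, which began 42 and 25 bp left of the summit. At Ctgf, an AP-1 motif began 16 bp left and the TEAD motifs 20 and 71 bp right of the summit. Both Tead1 sequences belonged to WT peaks with a Tet2 KO peak, while the Wwtr1 intron, Lats2 and Ctgf sequences belonged to WT peaks without one.

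Over the 10 windows, the Tet2 KO list kept a peak at 12 of the 65 WT peaks (18.5%, Wilson 95% interval 10.9 to 29.6%, which covers counting error only). The background is a KO peak at 14.1% of all WT peaks, which lies inside that interval. In the other direction, all 12 Tet2 KO peaks of the windows overlapped a WT peak, beside 96.8% of the whole list, so none of these genes had a Tet2 KO peak at a place without a WT peak. There were 5.42 WT peaks for each Tet2 KO peak in the windows and 6.72 in the lists as a whole. All 10 genes had a WT peak in the window, as did 74.3% of the 22350 protein-coding genes given the same window, and 4 had a Tet2 KO peak, against 31.4% of those genes. The 4 were Tead1, Tead2, Tead4 and Wwtr1, and the 12 Tet2 KO peaks were spread unevenly over them. Tead1 held 8, Tead4 held 2, and Tead2 and Wwtr1 held 1 each. The remaining 6 genes, Tead3, Yap1, Ctgf, Cyr61, Lats1 and Lats2, had between 1 and 7 WT peaks and no Tet2 KO peak.

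**Figure D1:**
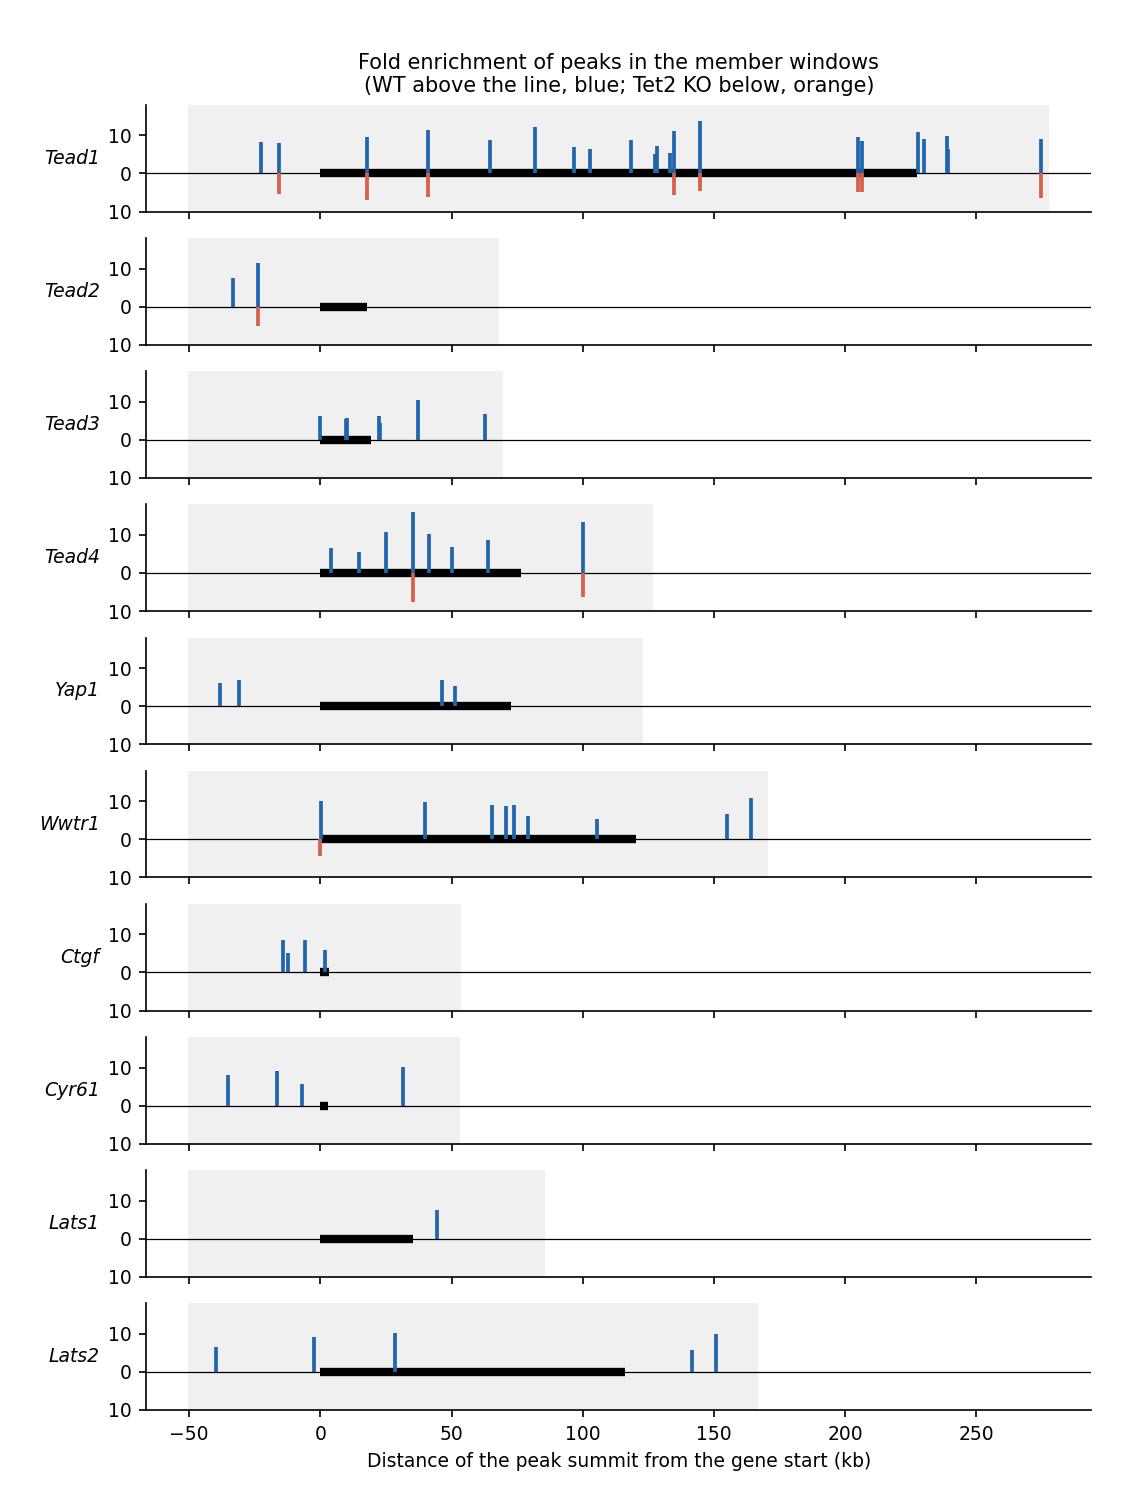
Fold enrichment of each peak (y axis, WT upward in blue and Tet2 KO downward in orange) against the distance of its summit from the gene start in kb (x axis) for the 10 genes, with the gene as a black bar and the window in grey. Tet2 KO peaks stand only at places with a WT peak, 8 of the 12 of them in the window of Tead1, and no gene but Wwtr1 has one at its start.

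Tead1, on the plus strand of chromosome 7 from 119822832 to 120050319, is the longest of these genes and had the most peaks in both lists. Its window of 327.5 kb held 21 WT peaks, 14 of them inside the gene, and no other gene that GENCODE M1 annotates as protein-coding. Only 5 of the 22350 protein-coding genes, Tead1 included, had as many WT peaks in their window, where the median gene had 2, and 18 had as many Tet2 KO peaks. Per 100 kb, the Tead1 window held 6.41 WT and 2.44 Tet2 KO peaks, a higher WT density than that of 95.9% of the genes and a higher Tet2 KO density than that of 98.2%. The WT fold enrichments ran from 5.03 to 13.9 with a median of 8.90, on 8 to 32 fragments, and 15 of the 21 peaks were above the median of the whole WT list, 7.89.

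Of the 21 WT peaks at Tead1, 8 had a Tet2 KO peak (38.1%, interval 20.8 to 59.1%), beside 14.1% of all WT peaks. Among the 5 genes with as many WT peaks, Tead1 included, the median share was 16.7%, and 1, Tead1 itself, reached its share. The strongest, in an intron 144.6 kb from the start, had a fold enrichment of 13.9 on 32 fragments in WT and of 4.61 on 10 fragments in Tet2 KO. The intronic peak at 40.9 kb had 11.4 on 27 fragments in WT and 6.18 on 16 in Tet2 KO. At 134.7 kb the values were 11.2 on 23 fragments and 5.54 on 13. When all WT peaks were ranked by fold enrichment into 5 equal groups, these 3 were the shared Tead1 peaks of the strongest group.

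At 17.9 kb, in the peak whose sequence is printed above, WT had a fold enrichment of 9.62 on 27 fragments and Tet2 KO one of 7.02 on 18, the highest Tet2 KO value in the window. Near the 3' end of the gene, at 204.8 kb, the values were 9.70 on 25 fragments and 4.96 on 12. A neighbour at 206.4 kb had 8.49 on 22 and 4.90 on 12. Of the 2 shared peaks outside the gene, 1 lay 15.9 kb upstream in an intron of the non-coding gene 2310014F06Rik, with 8.09 on 18 fragments in WT and 5.30 on 12 in Tet2 KO. The other lay 274.6 kb from the start at the promoter of Rassf10, a gene that GENCODE M1 does not annotate as protein-coding, with 9.04 on 15 fragments and 6.51 on 16. In each of the 8 pairs the Tet2 KO fold enrichment was the lower. At Rassf10 the raw counts of fragments were about equal. Divided by each library's genome-wide background, however, they were 23.1 in WT and 11.6 in Tet2 KO.

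The Tead1 peaks that had a Tet2 KO peak and those that did not overlapped in fold enrichment. The second strongest WT peak of the gene, at 81.6 kb with a fold enrichment of 12.2 on 30 fragments, had none, and neither did a peak 227.7 kb from the start and just past the gene, with 10.8 on 24 fragments. In the 5 groups by fold enrichment, from weakest to strongest, 0 of 2, 0 of 4, 2 of 3, 3 of 7 and 3 of 5 Tead1 peaks had a Tet2 KO peak. Strong peaks without one were common in the whole WT list too, where 41.9% of the strongest group had a Tet2 KO peak. No peak of either list lay at a promoter of Tead1. The peak at 81.6 kb came nearest, with its summit 1406 bp from an internal start. The listed WT peaks on either side of the gene start were 15703 bp upstream and 17538 bp downstream, and 1 WT peak number is skipped between them, so a further WT peak was called in these 33.2 kb and is not in the list. In Tet2 KO no number is skipped across the corresponding 33.6 kb.

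Tead4, on the minus strand of chromosome 6 from 128174306 to 128250841, had 8 WT peaks, 7 of them inside the gene, and 2 Tet2 KO peaks. It held the strongest WT peak of all 10 windows, in an intron 35.4 kb from the start (chr6:128215224-128215552), with a fold enrichment of 16.0 on 46 fragments. This is above 99.3% of the WT list. Its Tet2 KO partner had 7.64 on 20 fragments, the strongest Tet2 KO peak of the windows and above 89.9% of the Tet2 KO list. The second shared peak lay past the gene at the promoter of Gm10010, with 13.3 on 29 fragments in WT and 6.29 on 14 in Tet2 KO.

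The promoter peak of Tead4 itself stood at an internal start, 25.1 kb into the gene and 147 bp from the first base of a shorter protein-coding transcript. It had 10.7 on 28 fragments in WT and no Tet2 KO peak. Around the 5' end of the gene no peak was listed in either genotype: the flanking WT peaks were 59.0 kb apart with 2 numbers skipped between them. The other WT peaks of Tead4 had fold enrichments of 10.2 at 41.3 kb, 8.72 at 64.1 kb, 6.83 at 50034 bp, 6.47 at 4.2 kb and 5.53 at 14.8 kb, and none of them had a Tet2 KO peak.

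Tead2, on the plus strand of chromosome 7 from 52471123 to 52489005, had 2 WT peaks, both upstream of the gene. The stronger lay 23.7 kb upstream in an intron of Ccdc155, with 11.6 on 34 fragments in WT and 4.99 on 15 in Tet2 KO. The weaker lay 33.4 kb upstream with 7.41 on 13 fragments and had no Tet2 KO peak. The window holds 6 other protein-coding genes, and no peak lay inside Tead2 or at its promoter. Its start lies in a stretch of 148.9 kb with no listed WT peak, in which 3 numbers are skipped.

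Tead3, on the minus strand of chromosome 17 from 28468616 to 28487750, had 7 WT peaks and no Tet2 KO peak. Its own promoter peak, with a summit 121 bp upstream of the start, had 6.17 on 13 fragments, above 20.3% of the WT list. A pair of intronic peaks had 5.45 and 5.78 on 16 fragments each. The strongest peak of the window, with 10.6 on 29 fragments, belonged to the promoter of Fance, a neighbour downstream, and 2 more lay at the promoter of Rpl10a with 6.16 and 4.50. Leaving out Fance, the Tead3 window held WT peaks with a fold enrichment between 4.50 and 6.88, all under the WT median. The 4 TEAD genes together had 38 WT peaks, of which 11 had a Tet2 KO peak (28.9%, interval 17.0 to 44.8%, beside 14.1% of all WT peaks), 8 of these at Tead1.

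**Figure D2:**
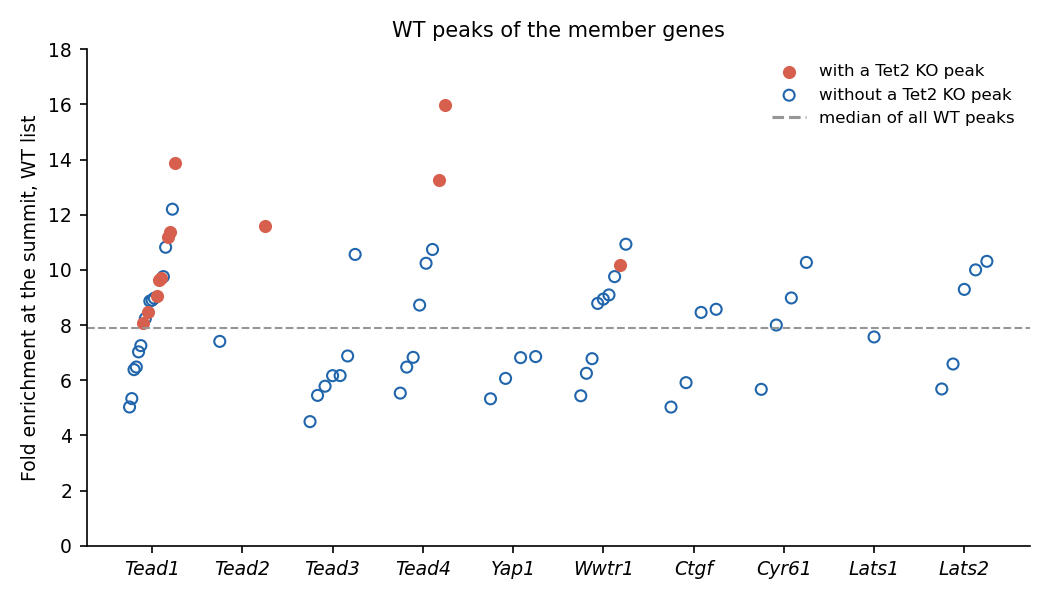
Fold enrichment at the summit of each WT peak (y axis) by gene (x axis), filled orange where a Tet2 KO peak overlapped it and open blue where none did, with the median of all WT peaks, 7.89, as a dashed line. The filled points of Tead2, Tead4 and Wwtr1 are at 10.2 or above, while those of Tead1 begin at 8.09 and are mixed with open points.

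Yap1, which encodes the coactivator YAP, lies on the minus strand of chromosome 9 from 7931999 to 8004596 and had 4 WT peaks and no Tet2 KO peak. Inside the gene, intronic peaks 46.2 and 51.4 kb from the start had fold enrichments of 6.82 on 11 fragments and 5.33 on 8. Upstream of it, 2 peaks of 9230110C19Rik had 6.86 on 11 fragments in an intron and 6.07 on 9 at the promoter. All 4 were weaker than the median WT peak. No peak of either list lay at the Yap1 promoter, where 2 WT numbers are skipped in an interval of 77.2 kb, and the nearest Tet2 KO peak was 167.5 kb from the start.

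Wwtr1, which encodes TAZ, was the only one of the 10 genes with a promoter peak in both lists. It lies on the minus strand of chromosome 3 from 57259571 to 57379832 and had 9 WT peaks, 7 of them inside the gene, more than 96.8% of the protein-coding genes. Its window is long, 220.3 kb, and its density of 4.09 WT peaks per 100 kb was higher than that of 85.3% of the genes. The promoter peak had a fold enrichment of 10.2 on 27 fragments in WT and of 4.32 on 11 in Tet2 KO, with summits 26 bp apart. Its Tet2 KO value was the lowest fold enrichment among the 12 Tet2 KO peaks of the windows, above 10.6% of the Tet2 KO list. The strongest WT peak, past the end of the gene and 164.1 kb from the start, had 10.9 on 19 fragments and no Tet2 KO peak. Between 39.9 and 74.0 kb, 4 intronic peaks had 9.76, 9.09, 8.78 and 8.94 on 18 to 26 fragments, each stronger than the median WT peak, and none had a Tet2 KO peak. The remaining WT peaks had 6.25, 5.44 and 6.78. Of the 13 WT peaks of the coactivator genes, 1 had a Tet2 KO peak (7.69%, interval 1.37 to 33.3%, beside 14.1% of all WT peaks).

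Ctgf and Cyr61, which encode secreted matricellular proteins, are short genes, and most of their WT peaks lay outside them. Ctgf, on the plus strand of chromosome 10 from 24315248 to 24318489, had 4 WT peaks. The strongest, 6.0 kb upstream (chr10:24309186-24309381), had 8.57 on 14 fragments, and another 14.2 kb upstream had 8.46 on 16. Both lie within the antisense non-coding gene Gm15270. A weaker peak 12.4 kb upstream had 5.03 on 9 fragments. The last, inside Ctgf 1.8 kb past the start, had 5.91 on 11 and counts as a promoter peak of Gm15270, whose transcripts begin in Ctgf on the other strand, so it cannot be assigned to 1 of the genes. Around the start of Ctgf, no WT number is skipped in the 7.6 kb between the listed peaks, so no further WT peak was called there.

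Cyr61, on the minus strand of chromosome 3 from 145309935 to 145312949, had 4 WT peaks, all in intergenic sequence. Upstream, they had 8.98 on 14 fragments at 16.5 kb, 8 on 15 at 35.3 kb and 5.67 on 13 at 7.1 kb. Downstream, the strongest had 10.3 on 18 fragments at 31.5 kb. Around the start of Cyr61, 2 WT numbers are skipped in the 38.5 kb between the listed peaks. None of the 8 WT peaks of both target genes had a Tet2 KO peak (0%, upper limit of the interval 32.4%, beside 14.1% of all WT peaks, which a count this small does not set apart). The nearest Tet2 KO peak was 938.5 kb from the start of Ctgf and 229.2 kb from that of Cyr61. Up to 7 Tet2 KO numbers are skipped between the listed peaks on either side of the Ctgf window and 2 at Cyr61, over intervals of 2338.2 and 503.2 kb, so an unlisted Tet2 KO peak in these windows could not be told from one elsewhere in the intervals.

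Lats1 and Lats2 had 6 WT peaks between them and no Tet2 KO peak (0%, upper limit 39.0%, beside the same 14.1%). Lats1, on the plus strand of chromosome 10 from 7401007 to 7436256, had a single peak in its window, with 7.57 on 13 fragments, and this was the promoter peak of Katna1. No peak lay inside Lats1. Lats2, on the minus strand of chromosome 14 from 58260914 to 58377225, had 5. An intronic peak 28.3 kb from the start had 10.3 on 16 fragments, and the peak with the pair of TEAD motifs, 2.3 kb upstream (chr14:58379261-58379620), had 9.29 on 20. A peak in Xpo4, past the end of Lats2, had 10 on 16 fragments, and the other pair, in Xpo4 and at the promoter of Sap18, had 5.68 and 6.59. No promoter peak was listed for either kinase gene. Between the listed WT peaks on either side of the start, 1 number is skipped in 135.9 kb at Lats1 and 2 in 30.3 kb at Lats2. Further WT peaks were therefore called there and are not in the list.

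**Figure D3:**
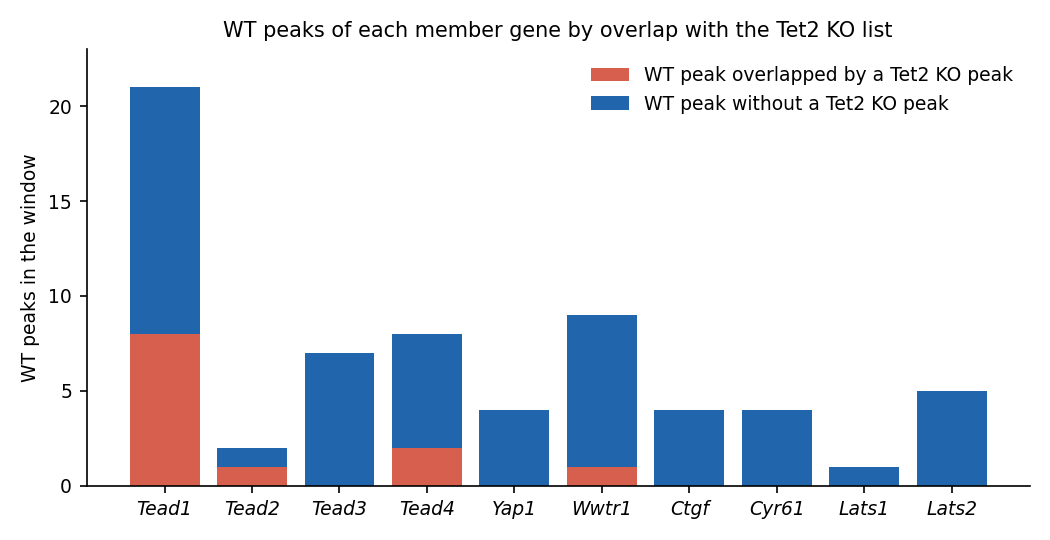
Number of WT peaks in the window of each gene (y axis) for the 10 genes (x axis), split into those overlapped by a Tet2 KO peak (orange) and those without one (blue). The bars run from 1 peak at Lats1 to 21 at Tead1, and the 6 genes Tead3, Yap1, Ctgf, Cyr61, Lats1 and Lats2 have no orange part.

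At promoters, taken to run from 1000 bp before to 100 bp after a transcript start, 3 of the 10 genes had a WT peak (Tead3, Tead4 and Wwtr1), against 30.9% of all protein-coding genes. In Tet2 KO 1 of the 10, Wwtr1, had one, against 8.04%. Both shares are near the background. Of the 65 WT peaks, 12 were promoter peaks (18.5%, interval 10.9 to 29.6%, beside 27.3% of the whole list), but 9 of these stood at starts of other genes in the windows. Introns held 39 of the 65 (60.0%, interval 47.9 to 71.0%), beside 36.3% of the whole list, and intergenic sequence 12 (18.5%, beside 33.0%). The windows were drawn around genes, and 34 of the 65 peaks lay inside the gene of their window. Of the 12 Tet2 KO peaks, 9 lay in introns and 3 at promoters, those of Wwtr1, Rassf10 and Gm10010. That is 75% in introns (interval 46.8 to 91.1%), beside 27.4% of the whole Tet2 KO list, and 25% at promoters (interval 8.89 to 53.2%), beside 43.4%. None was intergenic (upper limit 24.2%), beside 26.7% of the list. The Tead1 window held 8 of the 12, all in introns but the 1 at Rassf10, so these shares rest largely on that window. Of the 51 WT peaks in introns and intergenic sequence, 9 had a Tet2 KO peak (17.6%, interval 9.57 to 30.3%), beside 11.0% of all such WT peaks.

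The WT peaks of the windows that had a Tet2 KO peak were the stronger ones, as in the whole list. Their median fold enrichment was 10.7, against 7.25 for the 53 without one, and the medians over all WT peaks were 11.0 and 7.57. In the weaker 2 of the 5 groups by fold enrichment, 0 of 13 and 0 of 14 peaks of the windows had a Tet2 KO peak, followed in the stronger 3 groups by 2 of 8, 4 of 19 and 6 of 11 (54.5%, interval 28 to 78.7%). For all WT peaks the shares were 1.75, 3.34, 7.33, 16.1 and 41.9%. The lowest WT fold enrichment with a Tet2 KO peak was 8.09, and 23 WT peaks at or above it had none.

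**Figure D4:**
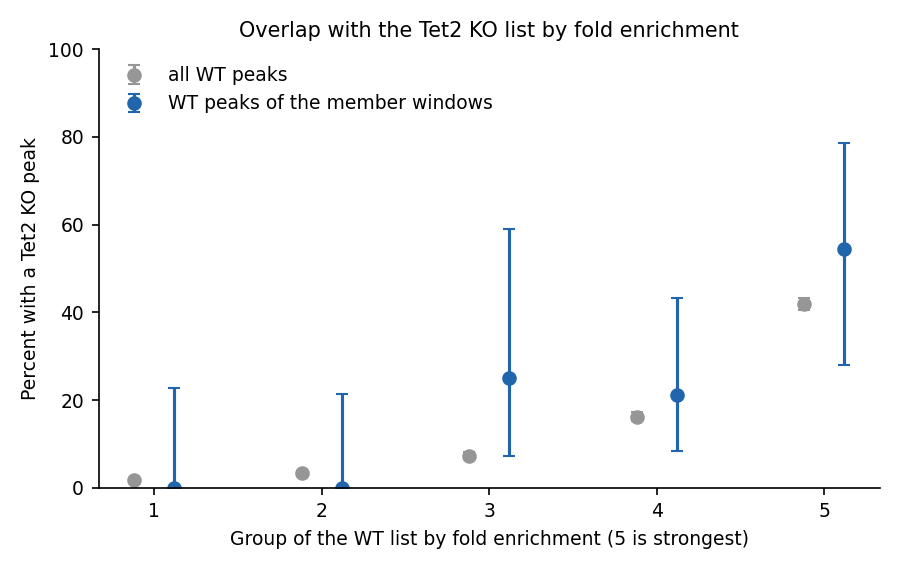
Percent of WT peaks overlapped by a Tet2 KO peak (y axis) in 5 equal groups of the WT list by fold enrichment (x axis, 5 is the strongest), for all WT peaks (grey) and for those of the 10 windows (blue), with Wilson 95% intervals as bars. The share rises from 1.75 to 41.9% over all peaks and from 0 of 13 to 6 of 11 in the windows, whose intervals are wide.

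Where both lists held a peak, the Tet2 KO fold enrichment was lower in 12 of 12 pairs. The ratio of Tet2 KO to WT ran from 0.333, at the Tead1 intron 144.6 kb from the start, to 0.730, at 17.9 kb of the same gene, with a median of 0.503. It was 0.424 at the Wwtr1 promoter, 0.431 at Tead2 and 0.478 and 0.474 at the Tead4 pairs. Over all 3712 pairs the median was 0.528 and 98.3% were under 1, so the pairs of these genes lay where most pairs lie. With the summit fragments divided by each library's genome-wide background, the median ratio was 0.241 in the windows (range 0.147 to 0.500) and 0.259 over all pairs. The Tet2 KO library had the higher background, which follows depth, and its part in these ratios was not tested. Summits of a pair lay 28 bp apart in the median and 108 bp at most.

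**Figure D5:**
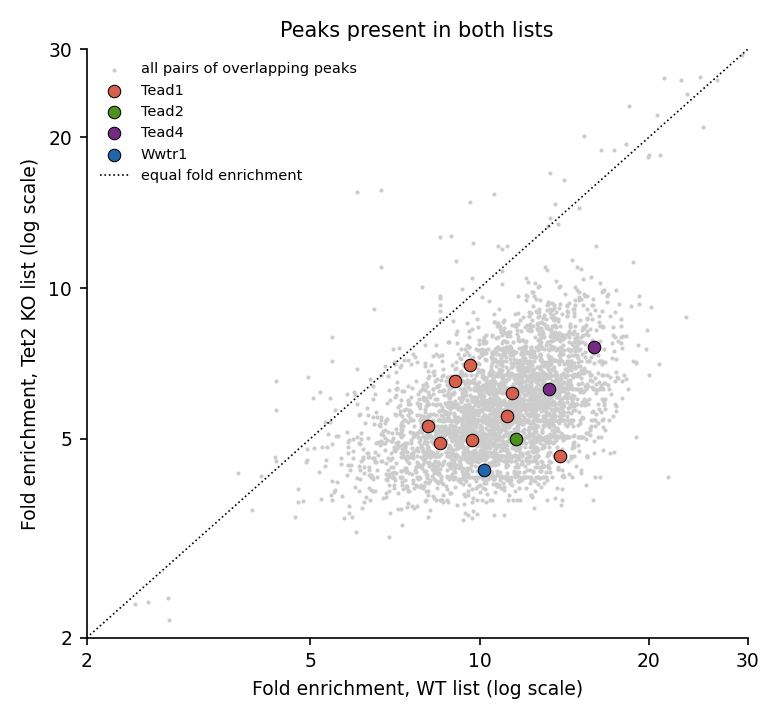
Fold enrichment in the Tet2 KO list (y axis, log scale) against that in the WT list (x axis, log scale) for all 3712 pairs of overlapping peaks (grey) and the 12 pairs of Tead1, Tead2, Tead4 and Wwtr1 (coloured), with a dotted line at equal values. All 12 coloured points lie below the line, with ratios between 0.333 and 0.730, within the cloud of the other pairs.

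Sequence motifs were searched on both strands in the 300 bp around each summit: GGAATG for TEAD, TGANTCA for AP-1, the E box CAGCTG that myogenic factors such as MyoD bind, and the CArG box of serum response factor. Each motif was counted on its own, and matches of different motifs may overlap. GGAATG lay in 15 of the 65 WT peaks (23.1%, interval 14.5 to 34.6%) and in 22.4% of all WT peaks. It was found in 5 of 21 peaks at Tead1, 2 of 9 at Wwtr1, 2 of 8 at Tead4, 2 of 7 at Tead3, 2 of 4 at Ctgf, 1 of 5 at Lats2 and 1 of 4 at Yap1. Cyr61, Lats1 and Tead2 had none in their WT peaks.

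The AP-1 motif lay in 20 of the 65 (30.8%, interval 20.9 to 42.8%), beside 37.9% of all WT peaks, and in 5 of the 9 at Wwtr1. The E box lay in 27 (41.5%, interval 30.4 to 53.7%), beside 39.1%, and in 12 of the 21 at Tead1 (57.1%, interval 36.5 to 75.5%). The CArG box lay in 2 (3.08%, interval 0.848 to 10.5%), both at the Rpl10a promoter in the Tead3 window, beside 1.85% of the list. Each of these intervals for the 65 peaks includes the share of the whole list. TEAD motifs were in 3 of the 12 WT peaks with a Tet2 KO peak and in 12 of the 53 without one, 25 and 22.6%, and E boxes in 41.7 and 41.5%. The median GC content was 54.3% in the former and 52.3% in the latter, beside 56.3 and 51.7% in the whole WT list. A match is only a match of letters, and factor binding was not measured here.

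Other genes of the pathway were counted in the same windows, from lists of upstream Hippo components, TEAD cofactors and YAP and TAZ targets. All 21 upstream components had WT peaks, 80 in total, beside 74.3% of protein-coding genes with one in the window. Of the 21, 12 had a Tet2 KO peak, beside 31.4% of protein-coding genes. These 18 Tet2 KO peaks overlapped 22.5% of the WT peaks (interval 14.7 to 32.8%, beside 14.1% of all WT peaks). The windows of these lists also hold other genes, such as 7 protein-coding ones at Taok2, so a peak in a window need not belong to the listed gene. Limd1, for example, had 2 WT and 2 Tet2 KO peaks in its window, with no WT peak inside the gene or at its promoter. Promoter peaks were listed for 12 of the 21 in WT and 4 in Tet2 KO, beside 30.9 and 8.04% of protein-coding genes. At Nf2, which encodes the tumour suppressor merlin, the promoter peak had a fold enrichment of 12.9 on 32 fragments in WT and 8.53 on 20 in Tet2 KO. The kinase gene Taok2 had 10.4 on 22 and 6.14 on 16, its paralogue Taok1 had 7.98 on 14 and 4.61 on 10, and Amot, a scaffold that binds YAP, had 10.7 on 21 and 5.03 on 11. The components with the most WT peaks were Ptpn14, with 8 in WT and 2 in Tet2 KO, and Amotl1, with 7 and 0. Stk3 and Stk4, the kinases above LATS, had promoter peaks of 10.6 and 6.67 in WT and none in Tet2 KO.

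The 4 TEAD cofactor genes of the vestigial-like family had 17 WT and 3 Tet2 KO peaks, with 3 of 17 WT peaks overlapped (17.6%, interval 6.19 to 41.0%). Vgll4, which encodes a TEAD repressor, had 8 in WT and 2 in Tet2 KO. Vgll2 had 5 and 1, Vgll3 had 4 and 0, and Vgll1 had none in either list. Promoter peaks were listed for Vgll3 and Vgll4 in WT and for none of the 4 in Tet2 KO. The 18 further target genes had 85 WT peaks and 11 Tet2 KO peaks (12.9% of the WT peaks overlapped, interval 7.38 to 21.7%), at 16 and 10 of the genes, beside 74.3 and 31.4% of protein-coding genes. Promoter peaks were listed for 5 of the 18 in WT and 1 in Tet2 KO, close to the 30.9 and 8.04% of protein-coding genes. That 1 was Ankrd1, which encodes a titin-binding muscle ankyrin repeat protein, with 9.74 on 29 fragments in WT and 6.54 on 16 in Tet2 KO. Rbms3 and Myof had the most WT peaks, 11 each, with 0 and 2 in Tet2 KO, while F3 and Fjx1 had no peak in either list. All Tet2 KO peaks of the 3 lists overlapped a WT peak. Of the 3 lists, the interval of the upstream components did not include 14.1%, as was also so for Tead1 and the TEAD genes together. The same held for the 5 myoblast marker genes (31.2%, interval 18 to 48.6%). Many intervals were computed and each covers counting error only, so such an exclusion is not a call of a difference. Nor is the 14.1% matched for fold enrichment, whose WT median was 8.9 at Tead1, 8.2 in the upstream windows and 7.89 in the whole list. The TEAD genes are not a separate case, since 8 of their 11 WT peaks with a Tet2 KO peak lay at Tead1. Outside the Tead1 window, 4 of 44 WT peaks of the 10 genes had one (9.09%, interval 3.59 to 21.2%). No test was made of these differences.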

How the data were processed

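ATAC-seq libraries came from 2 WT and 2 Tet2 KO myoblast samples. Per the methods, the authors trimmed 150 bp paired-end reads to 36 bp, used Bowtie2 for alignment to mm9, required a mapping quality of at least 30, dropped duplicates with Picard and ran MACS2 on each sample with a q of 0.01. The deposited fold enrichment is a ratio of summit to local background, with a pseudocount of 1. The deposited -log10 p and -log10 q are MACS2 summit values. The lists were assigned to the genotypes by their names, and their totals equal those the study shows for each genotype.

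Fragments at a summit were solved from fold enrichment and -log10 p to within 0.001, which recovered 100% of 3000 simulated peaks. The simulated peaks were made with the same formula, so their recovery checks the solving only. None was as weak as the weakest listed summits, with 6 fragments in WT and 7 in Tet2 KO. Where several solutions were found (55 WT peaks and 1 Tet2 KO peak), the background was required to reach the genome-wide value. Genes, starts and sequences came from GENCODE M1 and the NCBIM37 genome, which is mm9. A peak was assigned at its centre to a promoter, exon, intron or intergenic sequence, in that order. Peaks overlapped if they shared 1 bp. With 1 list per genotype, no test was made.

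The genes, the pathway lists and the markers were chosen with earlier results of these data known. All 10 genes are described. From each pathway list, the genes with a Tet2 KO promoter peak and the 2 with the most WT peaks are named, and Stk3, Stk4, Vgll1, Vgll3, F3 and Fjx1 were added after their values were seen. Alternatives were stricter peak limits, other gene windows, merged peaks, other overlap, promoter and feature rules, equal numbers of peaks, a shorter motif search and, chosen after seeing the data, leaving out Tead1. Calculations used scipy 1.17.1, pandas 2.3.3 and numpy 2.4.6 under Python 3.11.15, and figures matplotlib 3.10.9.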

Additional observations from a re-analysis of the deposited data

How the results depend on the processing

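No paired analysis was possible because the lists, 1 per genotype, have no replicate numbers, and leaving out a replicate could not be done either. WT peaks outnumbered Tet2 KO peaks in the windows under each alternative but that of equal numbers. With windows of 10 kb on either side the WT peaks fell from 65 to 43, and with 10 kb upstream to the end of the gene to 38, since these windows are shorter. A -log10 q of at least 5 left 5 Tet2 KO peaks, 8.33% of WT peaks with a Tet2 KO peak (9.03% in the whole list) and 12 WT peaks for each Tet2 KO peak. A fold enrichment of at least 5 left 7 Tet2 KO peaks, 10.9% of WT peaks with one (10.6% in the whole list) and 9.14 WT peaks for each. Under both limits 0 genes kept a Tet2 KO promoter peak, as that of Wwtr1 was below them. With as many WT as Tet2 KO peaks, taken by fold enrichment, 7 WT peaks were left in the windows beside 12 Tet2 KO peaks, so the direction turned, and 6 of the 7 had a Tet2 KO peak (85.7%, interval 48.7 to 97.4%, against 46.6% of the whole list). Without Tead1 there were 4 Tet2 KO peaks for 44 WT peaks, so 9.09% had one (interval 3.59 to 21.2%) and the ratio was 11, and the totals over the 10 genes rest largely on that gene. With promoters of 3000 bp on either side, 6 genes had a WT promoter peak. In 100 bp around the summit, GGAATG lay in 10.8% of the WT peaks of the windows and in 9.94% of all WT peaks. The other 35 of 49 values over all genes moved by less than their interval or, for counts, by at most 1.5 times. Of 50 counts at single genes, 15 moved by more, all under another window. The lists hold called peaks only, so signal under the cutoff is not seen.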
